A study of Homo sapiens with 8 samples.

Results

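The genes described here encode the subunits of the transcription factor NF-kB, the proteins that hold it in the cytoplasm and the kinase that releases it. They are RELA, RELB, REL, NFKB1 and NFKB2 (subunits), NFKBIA, NFKBIB and NFKBIE (inhibitors), TNFAIP3 (an inhibitor of the upstream signal) and IKBKB (the kinase), 10 genes in all. A region belonged to a gene if it overlapped the gene's RefSeq span (GRCh38.p14) extended by 3000 bp on both sides. By that rule 15 of 35154 listed RBBP4 regions and 1 of 20496 listed P300 regions belonged to these genes, out of 20033 protein-coding genes considered.

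The libraries came from NCI-H69, an established line of human small cell lung cancer. Cells of one arm received small interfering RNA against CSNK2B, the regulatory subunit gene of casein kinase 2, and cells of the other arm received non-targeting RNA. Formaldehyde-fixed chromatin was taken 48 h after transfection and precipitated with antibodies to RBBP4, a histone-binding subunit of several repressive and chromatin assembly complexes, or to P300, a histone acetyltransferase that serves as a coactivator. Each antibody had 1 precipitated library per arm, so differences have no replicate check and the conditions could not be tested against each other. The 4 input libraries were not used here.

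NF-kB factors bind DNA as dimers of Rel family proteins. RELA, RELB and REL carry transactivation domains, whereas NFKB1 and NFKB2 encode precursors that are processed to DNA-binding subunits without one. Inhibitor proteins of the I kappa B family keep the dimers in the cytoplasm until the I kappa B kinase complex phosphorylates them and marks them for degradation. Several of these genes, NFKBIA, TNFAIP3, NFKB2 and REL among them, are known NF-kB targets themselves and form feedback loops. Casein kinase 2 is known to phosphorylate both RELA and the NFKBIA protein, and P300 is known to acetylate RELA and to act as its coactivator.

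The sequences below are the 250 bases before a RefSeq start (GRCh38.p14), written in the direction of the gene. A listed RBBP4 region covered all 250 bases of each. The promoters before the second and last starts of NFKB2 were covered in full as well and are not printed whole. In NFKBIA (chr14:35404750-35404999, minus strand) and REL (chr2:60881324-60881573, plus strand) capitals mark matches to the kappa B consensus, the NF-kB binding motif, on either strand. In RELA (chr11:65663858-65664107, minus strand), which held no such match, capitals mark GC boxes (GGGCGG) and CCAAT boxes (CCAAT) on either strand.
NFKBIA: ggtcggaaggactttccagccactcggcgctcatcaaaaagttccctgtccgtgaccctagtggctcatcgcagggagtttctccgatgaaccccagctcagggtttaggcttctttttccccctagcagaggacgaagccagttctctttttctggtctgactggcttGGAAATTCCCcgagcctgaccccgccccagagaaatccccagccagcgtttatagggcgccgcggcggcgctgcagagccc
REL: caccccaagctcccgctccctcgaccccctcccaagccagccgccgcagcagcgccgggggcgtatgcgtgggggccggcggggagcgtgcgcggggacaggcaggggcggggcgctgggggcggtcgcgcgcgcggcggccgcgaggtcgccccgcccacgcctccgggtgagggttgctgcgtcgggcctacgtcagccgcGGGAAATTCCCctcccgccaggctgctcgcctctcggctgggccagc
RELA: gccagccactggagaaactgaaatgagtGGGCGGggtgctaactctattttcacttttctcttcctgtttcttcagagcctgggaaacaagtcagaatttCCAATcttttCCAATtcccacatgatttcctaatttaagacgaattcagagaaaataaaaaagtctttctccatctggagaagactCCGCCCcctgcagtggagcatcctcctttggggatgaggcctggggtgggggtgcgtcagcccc

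The motif was then looked for in every RefSeq promoter window of these genes, each holding 250 bases before a start and 50 after. The table held 12 windows for 7 of the genes. Windows of RELB, NFKBIE and IKBKB were not used here. The 10-base kappa B consensus occurred in 7 of the 12 windows, against 5.91% of all 35116 windows and 6.53% of the 22198 windows of protein-coding genes. Matches that overlapped were merged, which left 10 sites in 6 genes. RELA was the gene with windows but no site. A looser form, GGG and CC separated by any 5 bases on either strand, occurred in all 12 windows but also in 58.7% of all windows and 66.6% of those of protein-coding genes. Against windows of protein-coding genes, GC boxes were found in 10 of the 12 (56.3% of coding windows), CCAAT boxes in 3 (34.7%), the TATA box TATAAA in 1, that of NFKBIA (9.47%), the AP-1 motif TGANTCA in 1, of NFKBIB (6.15%), and the cyclic AMP response element TGACGTCA in 0 (2.26%). Over all windows the shares were 45%, 34.6%, 11.5%, 7.71% and 1.85%. A match describes letters and shows no bound site. Member windows had a median GC content of 68.2% and a median ratio of observed to expected CpG of 0.798, against 62.3% and 0.737 over windows of protein-coding genes.

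Stretches of 30 bases around the sites outside the 2 promoters printed above show where the motif lay and whether a listed RBBP4 region covered it. Capitals mark the motif, and the position of its first base is counted from the start site. NFKB2 had 2 sites before its second start, at -107 (chr10:102394461-102394490) and -78 (chr10:102394490-102394519). It had 2 more before its last start, at -176 (chr10:102395519-102395548) and -21 (chr10:102395674-102395703). All 4 NFKB2 sites lay inside listed regions, as did the site of NFKBIA at -81 and that of REL at -47, so 6 of the 10 sites did. Listed RBBP4 regions overlapped 7 of all 12 windows, and 4 of the 7 windows that held a site. The sites were thus covered about as often as the windows in general, and 4 of the 6 covered sites came from NFKB2 alone. The sites of NFKB1 at -49 (chr4:102501300-102501329), TNFAIP3 at -67 (chr6:137867182-137867211) and -55 (chr6:137867194-137867223), and NFKBIB at -28 before its second start (chr19:38899931-38899960) lay in no listed region. NFKBIA is on the minus strand and the others are on the plus strand.
NFKB2 at -107: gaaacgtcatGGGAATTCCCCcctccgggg
NFKB2 at -78: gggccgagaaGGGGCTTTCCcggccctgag
NFKB2 at -176: aacccccaccGGGGCTTCCCggattctcct
NFKB2 at -21: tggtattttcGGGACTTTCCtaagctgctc
NFKB1 at -49: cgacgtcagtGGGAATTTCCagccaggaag
TNFAIP3 at -67: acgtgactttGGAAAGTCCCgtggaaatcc
TNFAIP3 at -55: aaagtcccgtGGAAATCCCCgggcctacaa
NFKBIB at -28: gggcgtggtgGGGAATTTCCCgcagggcgg

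RBBP4 occupancy was higher after CSNK2B knockdown at 14 of the 15 listed regions of these genes and lower at 1. The higher regions lay at 6 genes, RELA, REL, NFKB1, NFKB2, NFKBIA and NFKBIE. Among all listed RBBP4 regions 68.8% were higher. Of all protein-coding genes 46.5% had a higher listed region by the same rule, so 6 of 10 lay near the background and does not set the NF-kB genes apart. The authors' deposited table puts 12 of the 15 regions under an adjusted p of 0.05 in the higher direction, against 48.3% of all listed regions. As a share of higher regions this was 12 of 14, against 70.3%. The same 6 genes held them, against 38.3% of genes. The deposited p-values, adjusted or not, come from 1 library per arm and so hold no measure of variation between replicates. In both tables a listed region is one with an unadjusted p below 0.05, and its name gives the arm in which the peak was called. That arm was the higher one for 35151 RBBP4 and 20496 P300 regions, so direction and peak call are nearly the same information.

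In the RBBP4 table reads were recovered as whole numbers for all 15 regions of these genes. Folds are ratios of reads scaled to the read totals inferred from the RPKM values, 1207945 in the knockdown and 833181 in the control library. Which reads these totals count was not tested. Their 95% exact binomial intervals cover counting error only, and reads are not independent molecules. Listing itself required an unadjusted p below 0.05 from the same pair of libraries, so intervals that exclude 1 were favoured in advance. Over 3270 RBBP4 regions the authors' log2 fold change was higher than the log2 ratio of the RPKM columns by a median of 0.57, and each region of the NF-kB genes had the same direction on both scales. Over 72 P300 regions the median shift was -0.43. Folds and intervals given here follow the RPKM scale. Shifts of this size would move the REL, NFKB1 and IKBKB intervals that include 1 clear of it. Which intervals include 1 therefore depends on the scale as well as on counting error. The deposited columns were assigned to arms by name, and for RBBP4 the names hold only initials. A swap of these columns would turn every direction. No listed region lay at CSNK2B, and its knockdown was not measured in these files. Of 9 neuroendocrine markers of small cell lung cancer 2 had a higher RBBP4 region, 1 of these also had a lower one and 7 had none listed, against 46.5% of all genes with a higher one. A higher RBBP4 region was present at 4 of 5 fibroblast, 1 of 3 macrophage and 0 of 4 T cell markers. These counts describe occupancy and cannot check the cell type.

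**Figure D1:**
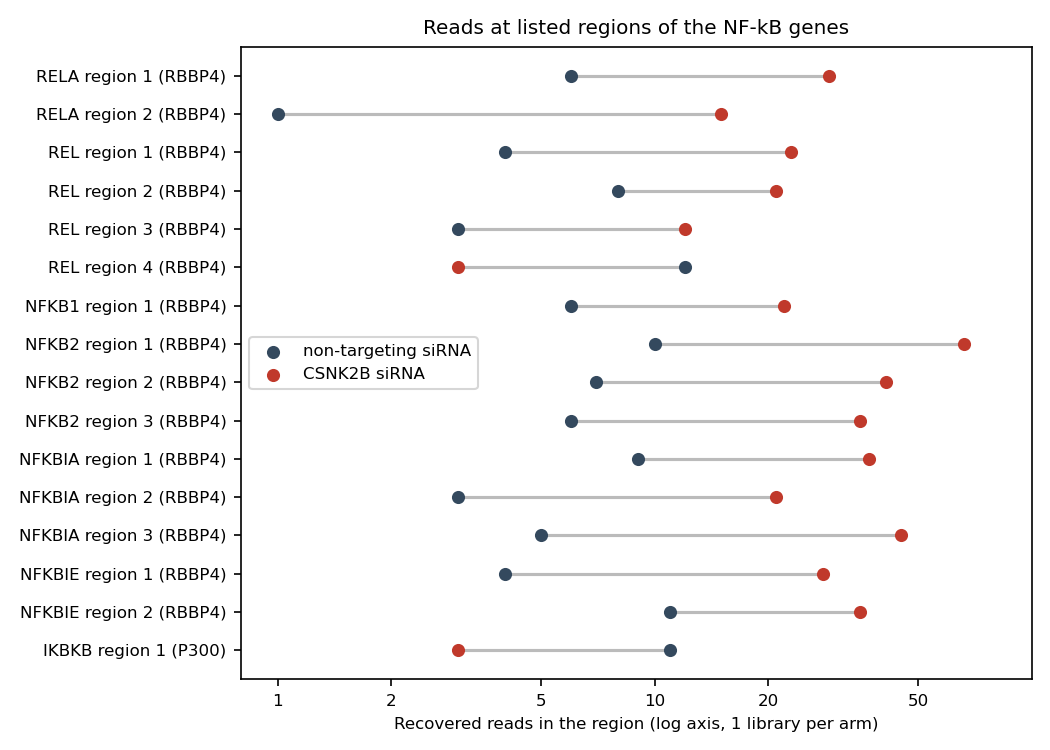
Reads recovered in each listed region of the NF-kB genes (log axis), with a dark point for the non-targeting library and a red point for the CSNK2B siRNA library, 1 library each. The red point lies to the right in 14 RBBP4 regions, and to the left in REL region 4 (3 against 12) and in the P300 region of IKBKB (3 against 11). Reads are not scaled to the inferred totals, which for RBBP4 were 1207945 (knockdown) and 833181 (control). An RBBP4 region of equal density would also show the red point to the right.

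Among the subunits with a transactivation domain, RELA had 2 regions. The region over its outermost start (chr11:65663821-65664281, 461 bp) held 15 reads after knockdown and 1 in the control, or 26.9 and 2.6 RPKM. This was a 10.3-fold higher density (1.59 to 436), and the authors' deposited table lists 0.00755 as its adjusted p. The width of that interval comes from the single control read. The region also overlaps RELA-DT, the divergent noncoding transcript, and 1 of 2 RELA promoter windows, and it did not reach the second start. At the far end of RELA, 202 bp outside the gene, a region of 711 bp held 29 reads against 6, a 3.33-fold higher density (1.36 to 9.82).

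REL, which encodes c-Rel, had 3 higher regions near its start and 1 lower region past its end. The start region (chr2:60881222-60881855, 634 bp) held 23 reads against 4 (RPKM of 30 and 7.57), a 3.97-fold higher density (1.36 to 15.8), and the adjusted p is 0.00665 per the authors' deposited table. The other two higher regions lay 1312 and 3302 bp into the gene with 21 reads against 8 (1.81-fold, 0.77 to 4.73) and 12 against 3 (2.76-fold, 0.745 to 15.2). Both intervals include 1, and the authors' deposited table lists adjusted p-values of 0.112 and 0.121. The lower region (chr2:60932256-60932551) began 644 bp beyond the gene and held 3 reads against 12, a 5.80-fold lower density (1.57 to 32.0), and the authors' deposited table lists 0.121 as its adjusted p. REL was thus the only one of the 10 genes with regions in both directions, and its lower region did not pass the authors' adjusted threshold. A lower listed region was present at 14.8% of protein-coding genes, and at 9.94% of those whose length lay within the range of these 10. RELB, the transactivating subunit of the noncanonical pathway, had no listed region for either antibody.

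Of the precursor genes, NFKB2 had the most reads. Its first region (chr10:102393928-102395026, 1099 bp) covered the first and second starts and held 66 reads against 10 (49.7 and 10.9 RPKM), a 4.55-fold higher density (2.33 to 9.93). Its adjusted p, 3.53e-07 per the authors' deposited table, was the smallest among the regions of the NF-kB genes. The next region (chr10:102395265-102396006, 742 bp) covered the last start and held 41 reads against 7 (4.04-fold, 1.79 to 10.7). A further region of 750 bp inside the gene, 2647 bp from its far end, held 35 against 6 (4.02-fold, 1.67 to 11.7). The 3 folds lay close together and their intervals overlapped.

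NFKB1, at 115944 bp the longest of the 10 genes, had a single region. It covered the second start (chr4:102501875-102502514, 640 bp) and began 516 bp inside the gene, beyond the first start and its kappa B site. It held 22 reads against 6 (28.5 and 11.3 RPKM), a 2.53-fold higher density. On the RPKM scale its interval (0.994 to 7.62) just includes 1. The authors' deposited table lists 0.0364 as its adjusted p, the largest among the 12 that lay below 0.05. NFKB1-AS1, an antisense transcript, overlaps the same region.

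**Figure D2:**
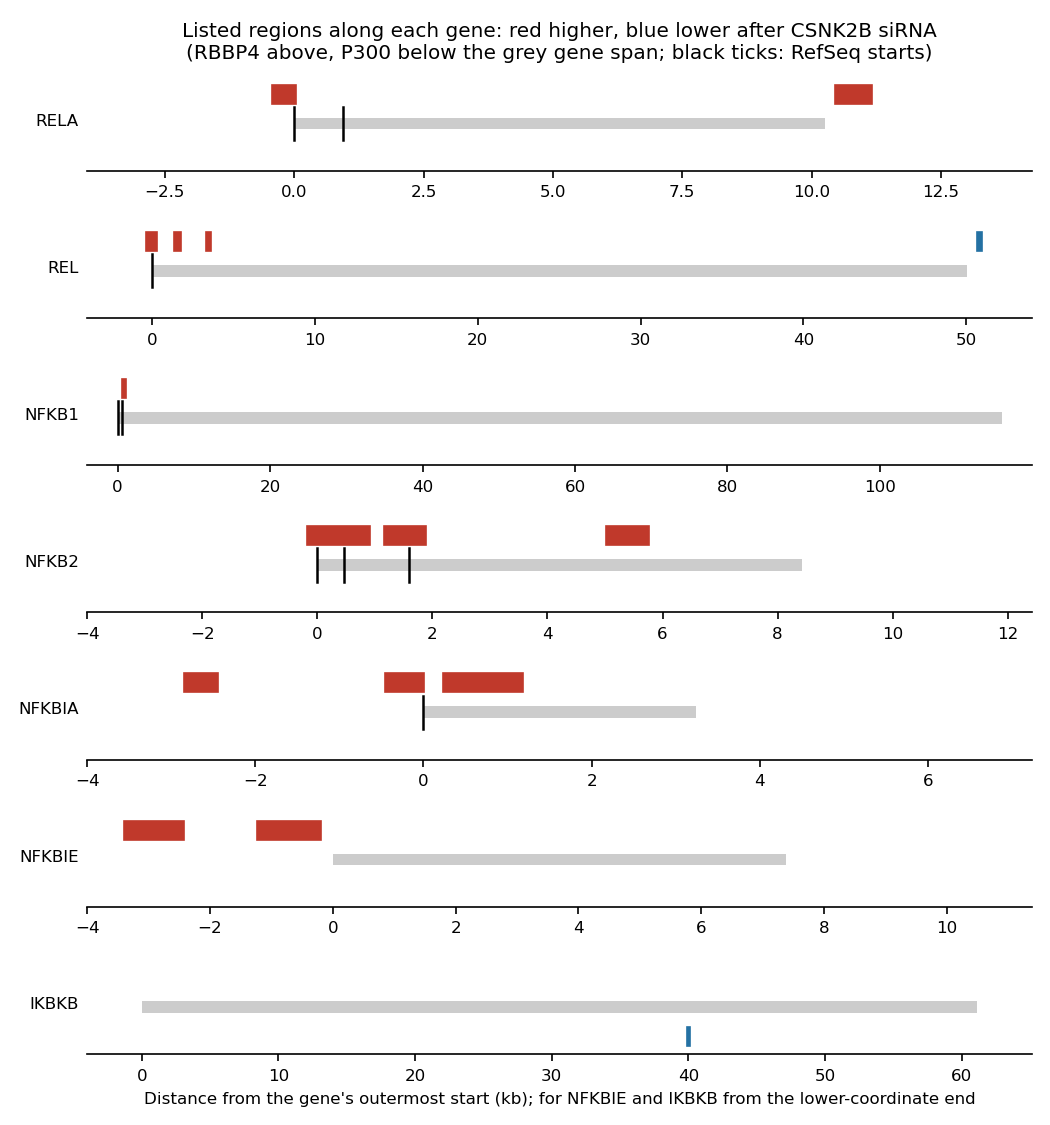
Position of each listed region (coloured bars, RBBP4 above and P300 below) along the gene span (grey), in kb from the outermost start, with RefSeq starts as black ticks; NFKBIE and IKBKB are drawn from the lower-coordinate end. Red bars mark regions higher after knockdown. They overlap a start in 6 of 14 cases, at RELA, REL, NFKB1, NFKB2 and NFKBIA, with no start used for NFKBIE. The blue RBBP4 bar lies 644 bp past the end of REL.

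Among the inhibitors, NFKBIA, the gene of I kappa B alpha, had 3 higher regions within and beside a span of 3237 bp. The start region (chr14:35404738-35405210, 473 bp) held 21 reads against 3 (36.8 and 7.61 RPKM), a 4.83-fold higher density (1.44 to 25.3). A region of 953 bp inside the gene, beginning 233 bp after the start, held 37 against 9 (2.84-fold, 1.34 to 6.68). The most densely covered region of all 10 genes lay 2449 bp before the start (chr14:35407198-35407600, 403 bp). It held 45 reads against 5, or 92.4 and 14.9 RPKM, a 6.21-fold higher density (2.47 to 20), and the authors' deposited table lists 2.73e-06 as its adjusted p. No other annotated gene overlapped the 3 regions.

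NFKBIE, which encodes I kappa B epsilon, had 2 higher regions, both outside the gene and overlapping its neighbour SLC35B2, a solute carrier gene. The nearer one, 199 bp from NFKBIE (chr6:44256933-44257967, 1035 bp), held 35 reads against 11 (2.19-fold, 1.09 to 4.79). The other, 2414 bp away (chr6:44254766-44255752), held 28 against 4 (4.83-fold, 1.69 to 18.9). The authors' deposited table lists adjusted p-values of 0.0139 and 0.000978 for them. Since both overlap SLC35B2, the data cannot assign them to NFKBIE, and without a flank NFKBIE had no region and 5 genes had a higher one. NFKBIB, the gene of I kappa B beta, and TNFAIP3, a ubiquitin-editing enzyme that ends NF-kB signalling, had no listed region for either antibody. Absence from the tables does not show that these genes lacked RBBP4 or a difference, since both hold only regions below the p threshold.

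**Figure D3:**
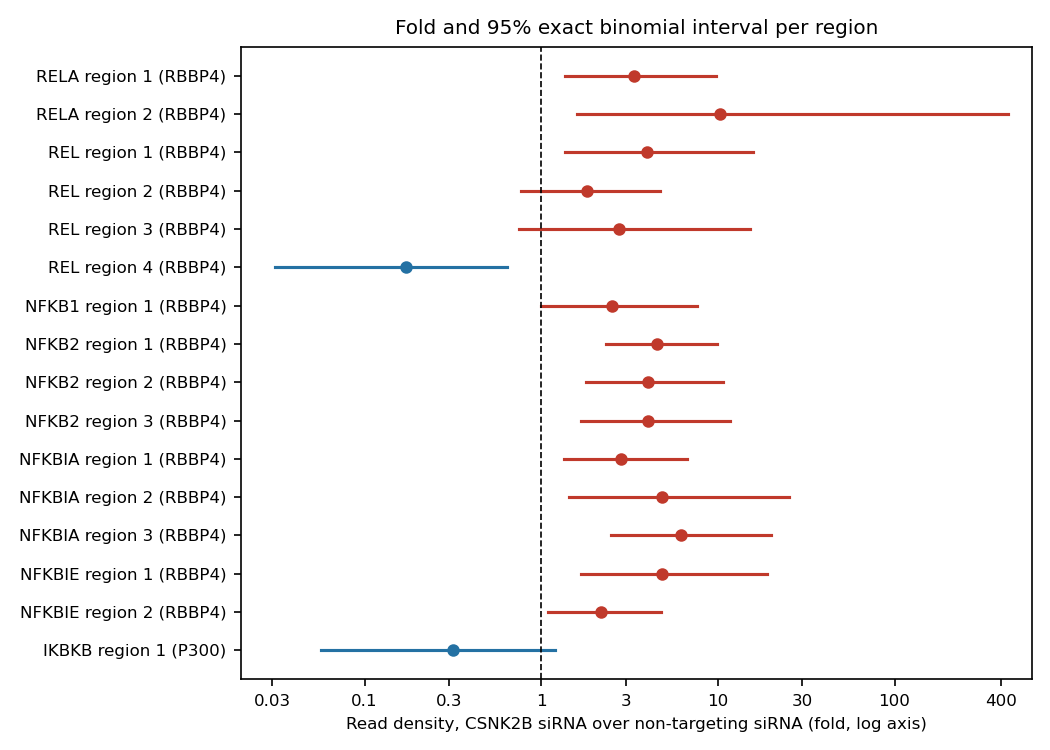
Read density after CSNK2B siRNA over that after non-targeting siRNA (points, log axis) with 95% exact binomial intervals (lines) for each listed region; the dashed line marks no difference. On the RPKM scale, intervals lie above 1 for 11 of the 14 higher RBBP4 regions and include 1 for REL regions 2 and 3, NFKB1 and the P300 region of IKBKB. The authors' log2 fold changes ran higher for RBBP4 and lower for P300, so which intervals include 1 depends on the scale. Listing required an unadjusted p below 0.05 from the same libraries, so the number of intervals that exclude 1 is no separate support.

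Across the 14 higher regions, folds ranged from 1.81 to 10.3. RPKM in the control library ranged from 2.6 to 19.8 with a median of 11.1, and after knockdown from 23.5 to 92.4 with a median of 34.2. Over all higher RBBP4 regions the medians were 8.95 and 34.8, so the knockdown level of the NF-kB gene regions was about that of other listed regions. With a pseudocount of 1 RPKM, which understates low regions, the median log2 ratio was 1.88 over these 14 regions and 1.86 over all higher regions. Their median depth was 33.5 reads in both libraries against 24 over all higher regions. The 15 regions of the NF-kB genes had a median width of 640 bp, against 476 bp over all higher regions and 429 bp over all listed ones. By size of difference, then, these regions were ordinary members of the RBBP4 list.

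**Figure D4:**
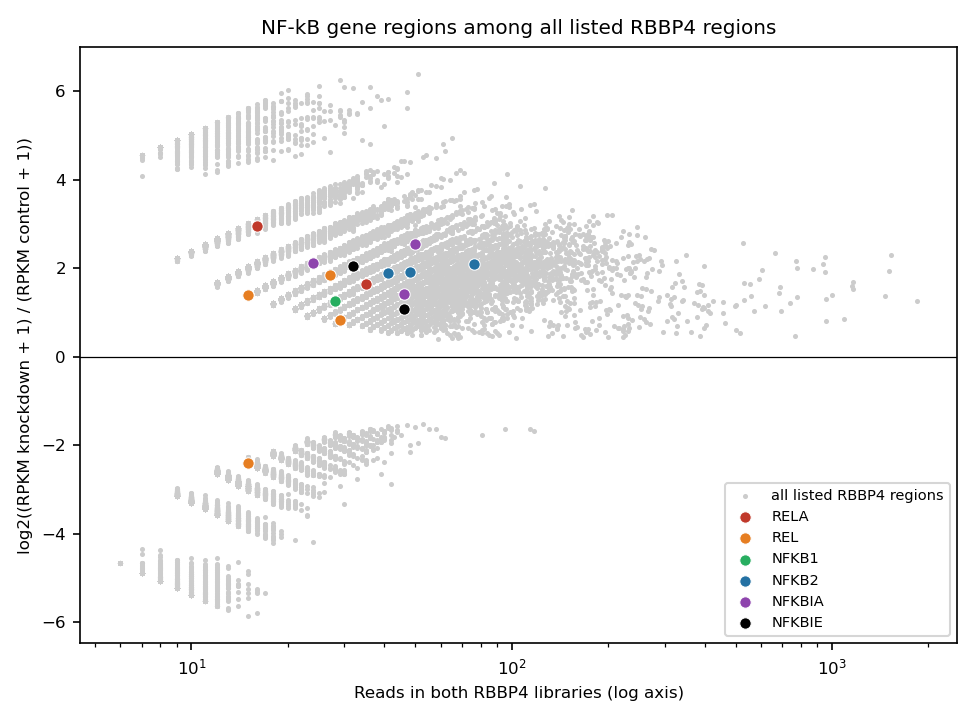
Log2 ratio of RPKM (pseudocount 1) against reads in both libraries (log axis) for listed RBBP4 regions with whole recovered reads (grey), with the 15 regions of the NF-kB genes in colour. The coloured points fall inside the grey cloud, between 15 and 76 reads, and 1 of them, at REL, lies below 0.

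Of the 14 higher regions 6 overlapped an annotated start of the gene. No start was used for NFKBIE, so its 2 higher regions could not enter the 6. Since the rule takes regions in and near the gene, and starts lie at gene ends, this count describes where the regions lay and was not set against other genes. REL, NFKB2 and NFKBIA each had at least 3 higher regions. Such clusters were present at 8.63% of all protein-coding genes, and at 4.5% of the 15079 genes whose length lay within the range of these 10 (3237 to 115944 bp). The number of regions depends on how a broad signal is split into peaks, which was not tested. Just inside the 3000 bp limit lay the NFKBIA region at 2449 bp. Just outside it lay an RBBP4 region 4191 bp from NFKBIE, which overlaps HSP90AB1 and held 40 reads against 4, and one 5757 bp from NFKB2 inside PSD with 25 against 7.

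P300 had 1 listed region at these genes, inside IKBKB, the catalytic kinase subunit that phosphorylates the inhibitors. The region (chr8:42311210-42311430, 221 bp) held 3 reads after knockdown and 11 in the control (14.3 and 45.5 RPKM), a 3.18-fold lower density. On the RPKM scale its interval (0.839 to 17.7) includes 1. The authors' deposited table lists 0.293 as its adjusted p, and 0.26 is the lowest it lists for any P300 region. The region lay 21030 bp from the nearer gene end. No P300 region was higher at any of the 10 genes, against 11.5% of protein-coding genes with one, and 1 gene had a lower one, against 17.7%. Among genes whose length lay within the range of these 10, the shares were 7.07% and 11.6%. Among listed P300 regions 65.3% were lower. At the kappa B sites and starts where RBBP4 density was higher no P300 region was listed, and the nearest P300 region to NFKB2, 4721 bp away and outside the limit, held 2 reads against 10. Listed P300 regions were shallow, at a median of 12 reads summed over the pair of libraries, and smaller differences were not detectable at this depth. The 2 antibodies carried separate batch labels and were not compared with each other.

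Around the 10 genes, 75 other genes of the pathway in 6 role groups were examined by the same rule. A higher RBBP4 region was present at 37 of the 75 (49.3%), against 46.5% of all genes. Counting only regions that the authors' deposited table puts under an adjusted p of 0.05 left 29 (38.7%), against 38.3%. A lower RBBP4 region was present at 15 (20%), against 14.8%, and 32 had none. For P300, 8 genes had a higher and 13 a lower region, 10.7% and 17.3%, against 11.5% and 17.7%. The pathway as a whole therefore lay near the background in each direction for both antibodies.

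**Figure D5:**
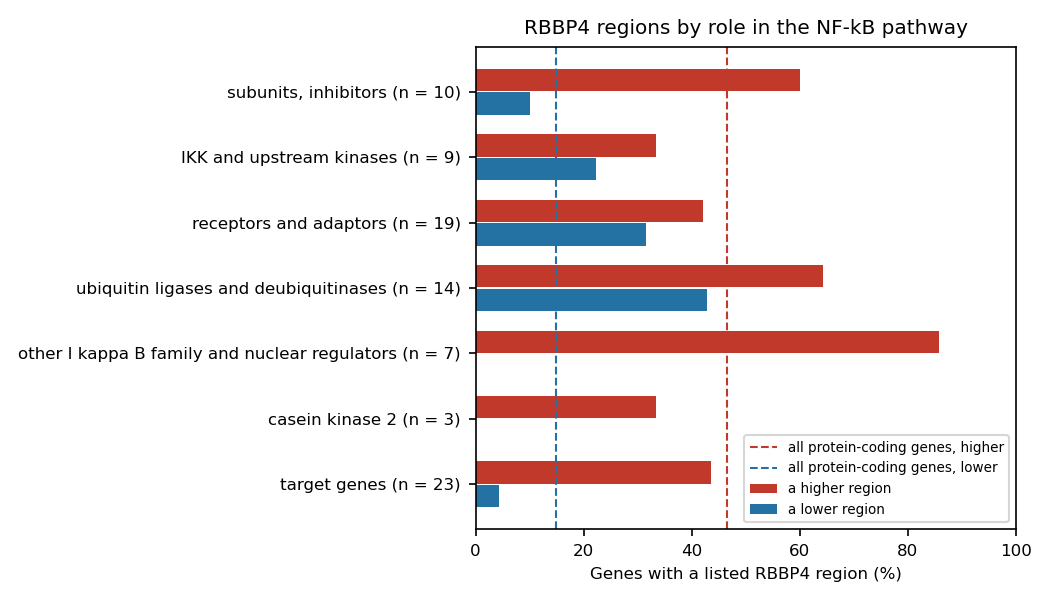
Share of genes with a higher (red) or lower (blue) listed RBBP4 region for the 10 subunit, inhibitor and kinase genes and for 6 other role groups, with dashed lines at the shares over all protein-coding genes (46.5% and 14.8%). Groups hold 3 to 23 genes, so a single gene moves a bar by several percent or more.

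Of 7 other I kappa B family members and nuclear regulators, 6 had a higher RBBP4 region, against 46.5% of all genes, and 0 a lower one, against 14.8%. For 4 of the 7 the authors' deposited table puts a higher region under an adjusted p of 0.05, against 38.3%. With 7 genes and no test, these counts do not set the group apart. BCL3, an I kappa B-like coactivator that binds the NFKB1 and NFKB2 products, had 36 reads against 5 at a region at a gene end (4.97-fold, 1.94 to 16.2). At NFKBIZ, another nuclear I kappa B protein, a region 336 bp after a start held 18 reads against 3 (4.14-fold, 1.21 to 21.9). NKIRAS1, a small GTPase that binds I kappa B proteins, had 31 against 4 (5.35-fold, 1.89 to 20.8) at a region that RPL15 shares. PDLIM2, a ubiquitin ligase for RELA, had a region inside the gene with 19 against 1 (13.1-fold, 2.08 to 545).

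Kinases and receptors showed regions in both directions. Of 9 kinases and their partners, 3 had a higher and 2 a lower RBBP4 region, MAP3K7 among both. These were 33.3% and 22.2%, against 46.5% and 14.8% of all genes. TBK1, an I kappa B kinase relative, had 24 reads against 3 at its start (5.52-fold, 1.68 to 28.6), MAP3K7, the kinase upstream of IKBKB, 18 against 3 beside its start (4.14-fold, 1.21 to 21.9) and its partner TAB1 21 against 4 at its start (3.62-fold, 1.22 to 14.5). TAB2, a ubiquitin-binding adaptor, had 8 against 20 inside the gene, a 3.62-fold lower density (1.53 to 9.51). Of 19 receptors and adaptors, 8 had a higher and 6 a lower region, RIPK1 and MALT1 both. Here the shares were 42.1% and 31.6%, against 46.5% and 14.8%. TRAF2, an adaptor of tumour necrosis factor receptors, had an internal region with 32 reads against 7 (3.15-fold, 1.37 to 8.46). LTBR, the lymphotoxin receptor, had 22 against 4 (3.79-fold, 1.29 to 15.1) at a region inside the neighbouring SCNN1A. RIPK1, the kinase adaptor of the same receptors, had 2 against 19, a 13.8-fold lower density (3.32 to 122), and MALT1, a protease of antigen receptor signalling, had 3 against 17, an 8.22-fold lower density (2.38 to 43.8). These lower regions lay 8176 and 40900 bp from the nearer gene end, and each gene also had a higher region elsewhere.

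Of 14 ubiquitin ligases and deubiquitinases 9 had a higher and 6 a lower RBBP4 region (64.3% and 42.9%, against 46.5% and 14.8% of all genes), 5 of them both. BIRC2, a ligase of the receptor complex, had 25 reads against 0 beside its start. Its density was 5.75-fold higher when 3 reads stand in for 0, with an exact lower limit of 4.34 from the counts themselves. BTRC, which recognises phosphorylated I kappa B, had an internal region with 35 against 5 (4.83-fold, 1.88 to 15.8). CYLD, a deubiquitinase that restrains NF-kB, had 3 against 19, a 9.18-fold lower density (2.70 to 48.4), and TAX1BP1, an adaptor of TNFAIP3, 4 against 22, a 7.97-fold lower density (2.71 to 31.8). Both lay inside the gene, at least 25920 bp from an end.

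Of 23 NF-kB target genes 10 had a higher RBBP4 region and 1, VCAM1, a lower one as well. These were 43.5% and 4.35%, against 46.5% and 14.8% of all genes. VCAM1, an adhesion molecule induced by NF-kB, held 76 reads against 7 in a region 1517 bp after its start (7.49-fold, 3.46 to 19.3), and the authors' deposited table lists 4.75e-10 as its adjusted p. SOD2, the mitochondrial superoxide dismutase, had 21 against 2 (7.24-fold, 1.77 to 63.7) at a region that WTAP shares. CD83 had 36 against 6 (4.14-fold, 1.73 to 12.0) and TNFAIP2 23 against 4 (3.97-fold, 1.36 to 15.8). No listed RBBP4 region lay at 13 targets, and 1 target, BCL2L1, had a listed P300 region, with 13 reads against 3 (5-fold, 1.37 to 27.4). A higher P300 region was thus present at 4.35% of targets, against 11.5% of all genes. Of the casein kinase 2 genes CSNK2A1 had a higher RBBP4 region (33.3%, against 46.5% of all genes) and 2 of 3 had none.

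P300 regions at the other pathway genes were shallow. The highest folds were at IL1R1, the interleukin 1 receptor, with 11 reads against 1 (12.7-fold, 1.85 to 547), IRAK2, a receptor-associated kinase, with 10 against 1 (11.5-fold, 1.64 to 501), and TAB3, BTRC and PDLIM2 with 9 against 1 each (10.4-fold, 1.44 to 456). TAB2 had 13 against 2 (7.51-fold, 1.70 to 68.5) and COMMD1, a scaffold that promotes RELA degradation, 20 against 5 (4.62-fold, 1.68 to 15.7). TRAF5, a receptor adaptor, had 2 against 9, a 3.90-fold lower density with an interval that includes 1 (0.807 to 37.1), and FBXW11, the paralogue of BTRC, had 9 against 21 (2.02-fold lower, 0.887 to 5.01). TAB2, TAB3, PDLIM2, IL1R1 and COMMD1 had P300 regions in both directions.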

How the data were processed

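Chromatin immunoprecipitation sequencing of NCI-H69 cells was deposited as 1 table of regions per antibody. Values are RPKM in the knockdown and control libraries, computed by the authors. The log2 fold change, mean log2 CPM, p-value and adjusted p-value of each region are the authors' deposited values, per the file headers. The submitters' processing notes name MACS2 2.2.7.1, Bowtie2 2.4.5, ChIPseeker 1.28.3, Trim Galore 0.6.7, FastQC and DiffBind 3.4.11, without roles, and the build GRCh38. Columns of other samples numbered 0.

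Reads were recovered as RPKM times width over the value of 1 read, and came out whole within 0.01 of a read for 98.3% of RBBP4 and 99.4% of P300 regions. Read totals inferred from the RPKM values were 946392 (knockdown) and 1092789 (control) for P300. Folds took a floor of 3 reads for 0. Recovery was run on data simulated from the recovered counts and inferred totals. Such a run checks the arithmetic and cannot show that the inferred value of 1 read is right. Python 3.11.15, pandas 2.3.3 and scipy 1.17.1 were used. With 1 library per group no test was run. The sign of the deposited log2 fold change set higher and lower.

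The 10 genes, the pathway lists and the motifs were chosen with earlier results of these data known. All 10 genes are described. Of the others, up to 4 per role and antibody with the largest absolute log2 ratio were named, among regions with at least 20 (P300: 10) reads. Regions without whole reads were left out of that choice, a departure from the rule decided after the values were seen. It took out TNFRSF1A, brought in TRAF2 and changed the region shown for COMMD1. A further gene that the rule names is not reported here. Gene positions and promoters are from RefSeq, GRCh38.p14, matched by symbol for 10 genes and all 75 pathway genes. Alternatives changed the flank, overlap, depth filter, threshold, pseudocount and scaling.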

Additional observations from a re-analysis of the deposited data

How the results depend on the processing

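The count of 6 genes with a higher RBBP4 region stayed at 6 with flanks of 1000 or 10000 bp, with at least 50% of a region inside, at 20 or more reads, under an adjusted p of 0.05 per the authors' deposited table, and within 3000 bp of a gene end. It was 5 without a flank. The count of 1 gene with a lower RBBP4 region, REL, became 0 without a flank, at 20 or more reads and with an adjusted p below 0.05. The count of 1 gene with a lower P300 region, IKBKB, became 2 with a flank of 10000 bp (NFKB2 added) and 0 at 20 or more reads, with an adjusted p below 0.05 or within 3000 bp of a gene end. Fewer regions enter under these filters. The count of genes with a higher P300 region was 0 under all 7 alternatives. The median log2 ratio of 1.86 over the 15 RBBP4 regions ranged from 1.48 (pseudocount 5) to 2.53 (the authors' log2 fold change). Each of the 16 regions kept its direction and stayed within its counting interval with pseudocounts of 0.1 and 5 and on the authors' scale. No replicate could be left out and no paired analysis was possible because each group had 1 library. Depth limited single regions to 15 to 76 reads for RBBP4 and 14 for P300.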
